A study of Mus musculus with 4 samples.

Results

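Serotonin receptor genes were followed through the brains of BCAS1 KO and wildtype mice. They were taken as all probe sets that the array's annotation table names as 1 of 10 listed genes. That table named 16 probe sets of 9 of these genes, among 45037 probe sets and 18193 named genes tested. Htr2a, 1 of the 10, had no probe set named in the table and was not analysed here. Of the 9 genes, 7 had 2 probe sets each (Htr1a, Htr1b, Htr1f, Htr2c, Htr4, Htr5a and Htr7), and Htr3a and Htr5b had 1.

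The tested mice were 2 BCAS1 KO (-/-) males, set against 2 wildtype (+/+) males. All 4 were C57BL/6 animals of 8 to 9 weeks, came from crosses of BCAS1 (+/-) parents, and carried no other allele or treatment named in the labels. Each mouse gave 1 Affymetrix array, made from 100 ng of total RNA with a labelling chemistry that starts at the 3' end of transcripts. How the BCAS1 allele was made, and whether the mice were littermates, was stated in no source used here. The labels name both brain and cerebrum. Transcripts known from outside the cerebrum gave signal on all arrays, among them Gabra6, a receptor subunit of cerebellar granule cells, at 11.57 and 11.63 in KO and 11.73 and 11.78 in wildtype. Tph2, the enzyme that starts serotonin synthesis in the raphe neurons of the brainstem, read 7.23 and 7.47 in KO and 7.26 and 7.47 in wildtype.

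Signal is given as log2 RMA levels, so a difference of 1 is a doubling or halving of signal, and the median probe set had a level of 6.49. A probe set's level also depends on how well its probes bind, so differences were taken between mice and not between probe sets. Levels of different probe sets were set side by side as a rough gauge of bright and dim signal. The targeted gene was read first. The brightest Bcas1 probe set measured 11.05 and 10.75 in KO, against 12.17 and 12.21 in wildtype, so that KO was 1.29 lower on average (KO minus wildtype -1.29, SE 0.12; limma's adjusted p was 0.742). Its 2 dim probe sets were higher in KO, by 0.64 and 0.77. Array medians ran from 6.49 to 6.51. The 3' minus 5' difference of actin, a gauge of RNA integrity, was 1.14 and 1.15 in KO and 1.09 and 1.12 in wildtype. The second KO array stood apart in genes of nasal tissue: the mean level of 6 such genes was 4.82 and 7.57 in KO and 4.84 and 5.05 in wildtype. Differences without that array are given beside most of the receptor probe sets.

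Serotonin is released by raphe neurons whose axons reach nearly the whole brain, and its effect on a cell is set by the receptors that cell carries. Most of the receptors are coupled to G proteins. Those of the Htr1 group, and Htr5a, act through inhibitory G proteins that lower cyclic AMP and, for several of them, open potassium channels. Receptors of the Htr2 group release calcium through Gq and phospholipase C, while Htr4 and Htr7 raise cyclic AMP through Gs. Htr3a differs from all of these, since it is a subunit of a cation channel that serotonin opens directly.

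The serotonin receptor probe sets differed little between the genotypes. Of the 16 probe sets, 0 passed the adjusted threshold of 0.05 in limma, where 2 of 45037 probe sets (0.00444%) passed. At an unadjusted p under 0.05, 1 of the 16 passed (Htr4, lower in KO), where 3.42% of all probe sets did, 1.82% higher and 1.61% lower in KO. The median KO minus wildtype difference was 0.018 over the 16 and 0 over all probe sets, with 8 positive, 6 negative and 2 at 0. Median absolute differences were 0.060 over the 16 and 0.065 over all probe sets. The KO arrays lay wholly above or wholly below the wildtype arrays for 3 of the 16, against 27.1% of all probe sets. Of these 3, 2 were higher in KO (13.9% of all probe sets) and 1 was lower (13.2%). By fold, 2 of the 16 were at least 1.2-fold apart (3.93% of all probe sets), both of them Htr4, and 0 were at least 1.5-fold apart (0.147%). An exact permutation test of 2 against 2 mice cannot give a two-sided p below 0.333.

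**Figure D1:**
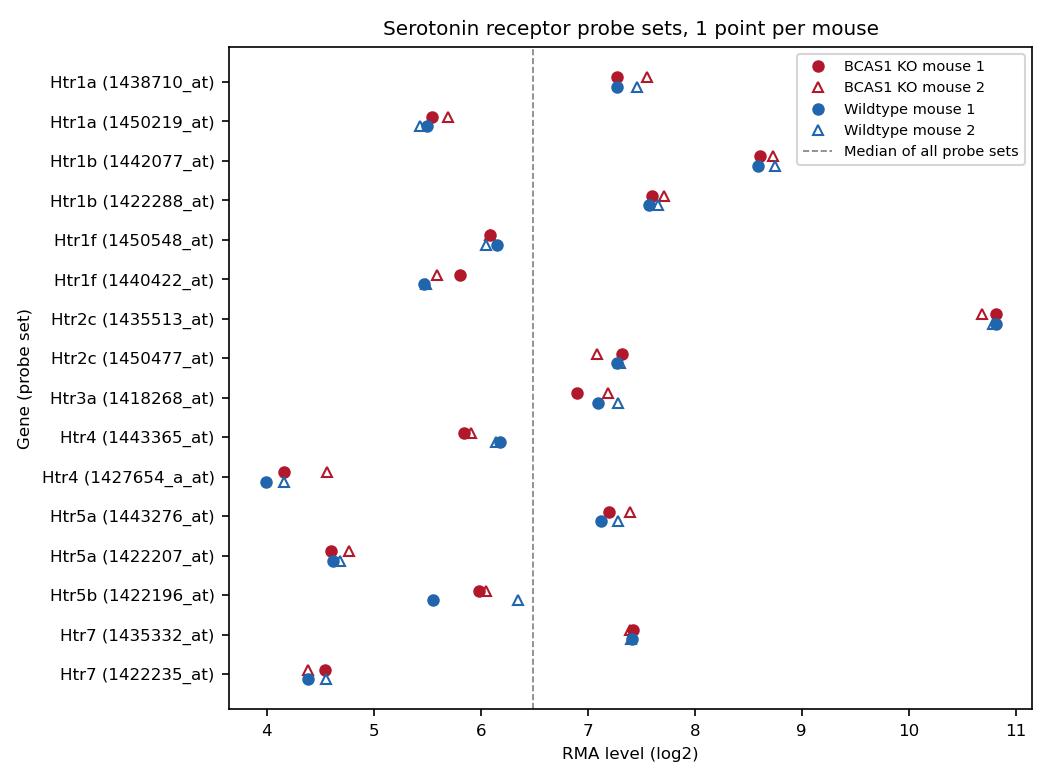
RMA level (log2) of each serotonin receptor probe set, with 1 point per mouse: red for BCAS1 KO, blue for wildtype, filled circles for mouse 1 and open triangles for mouse 2. The dashed line is the median of all probe sets, 6.49. The colours are interleaved in most rows, and the widest pair is that of wildtype for Htr5b, at 5.55 and 6.35.

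Among the inhibitory receptors, Htr1a is the autoreceptor on the cell bodies of raphe neurons and is also abundant in the hippocampus. Its brighter probe set (1438710_at) measured 7.27 and 7.55 in KO and 7.27 and 7.46 in wildtype. The first mouse of each genotype read the same, and the groups overlapped. The difference was 0.045 (SE 0.13, 95% interval -0.29 to 0.38), and -0.095 without the second KO mouse. The dimmer Htr1a probe set (1450219_at) measured 5.54 and 5.69 in KO and 5.50 and 5.43 in wildtype. Both KO mice were above both wildtype mice, but the gap between the groups was narrower than the spread within KO. That difference was 0.15 (SE 0.087, adjusted p of 1 in limma). Without the second KO mouse it was 0.075.

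Htr1b, the autoreceptor on serotonin terminals that also sits on the terminals of other neurons, differed little in either probe set. Its brighter probe set (1442077_at) measured 8.61 and 8.73 in KO and 8.59 and 8.75 in wildtype, so the KO mice lay between the wildtype mice. The mean was 8.67 ± 0.085 in KO and 8.67 ± 0.11 in wildtype (SD, n = 2 each), and the 95% interval of the difference was -0.25 to 0.25. Without the second KO mouse the difference was -0.06. The other Htr1b probe set (1422288_at) measured 7.60 and 7.71 in KO and 7.57 and 7.66 in wildtype. It differed by 0.040 (SE 0.082), again with overlapping groups, and by -0.015 without the second KO mouse.

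Htr1f, a receptor of the same group and a target of migraine drugs in humans, was read by 2 dim probe sets that did not move alike. One (1450548_at) measured 6.09 in both KO mice and 6.15 and 6.05 in wildtype, a difference of -0.010 (SE 0.076). The other (1440422_at) measured 5.81 and 5.59 in KO and 5.47 and 5.49 in wildtype. Both KO mice were higher there, and the first KO mouse was the highest of the 4. The difference was 0.22 (SE 0.099, 95% interval -0.039 to 0.48, adjusted p of 1 in limma). It was 0.11 without the first KO mouse and 0.33 without the second.

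Htr5a, which like the Htr1 group couples to inhibitory G proteins, had overlapping groups in both probe sets. Its brighter probe set (1443276_at) measured 7.20 and 7.39 in KO and 7.12 and 7.28 in wildtype, a difference of 0.095 (SE 0.11). The dim one (1422207_at) measured 4.60 and 4.77 in KO and 4.62 and 4.68 in wildtype, a difference of 0.035 (SE 0.090). Without the second KO mouse these differences were 0 and -0.050. Htr5b, a close relative whose human counterpart is a pseudogene, was the least precisely measured member. It read 5.98 and 6.05 in KO and 5.55 and 6.35 in wildtype, so that the KO pair lay inside the wildtype pair. The difference of 0.065 had an SE of 0.27 and a 95% interval of -0.64 to 0.77, which spans 0.642-fold to 1.71-fold. Leaving out the first wildtype mouse gave -0.335 and leaving out the second gave 0.465.

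The Gq-coupled receptor Htr2c, known for curbing appetite and for its high level in the choroid plexus, was lowest in the second KO mouse in both probe sets. Its RNA is also edited at several adenosines, which changes the receptor protein and which an array of this kind does not read. The brighter probe set (1435513_at) measured 10.81 and 10.68 in KO and 10.81 and 10.79 in wildtype. Its first KO mouse equalled the first wildtype mouse, and the second KO mouse was the lowest of the 4. The difference was -0.055 (SE 0.081), and its 95% interval in fold ran from 0.832 to 1.11. The other Htr2c probe set (1450477_at) measured 7.32 and 7.09 in KO and 7.27 and 7.30 in wildtype, with the same mouse lowest and a difference of -0.080 (SE 0.10). Without the second KO mouse the differences of these 2 probe sets were 0.010 and 0.035. Choroid plexus genes, 10 of 10 measured, had mean levels of 8.01 and 8.16 in KO and 7.99 and 8.05 in wildtype. Of the 10, 7 were positive and 2 negative. Sostdc1 differed most, at 0.25 (SE 0.069, unadjusted p of 0.017 in limma), with both KO mice above both wildtype mice, and was not called. The part of choroid plexus content in the Htr2c levels was not tested.

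The channel subunit Htr3a is carried in the cortex by interneurons from the caudal ganglionic eminence. It measured 6.90 and 7.19 in KO and 7.10 and 7.28 in wildtype. The first KO mouse was lowest and the second lay between the wildtype mice. The difference was -0.145 (SE 0.13, 95% interval -0.49 to 0.20). It was 0 without the first KO mouse and -0.29 without the second. Marker genes of these interneurons had mean levels of 10.12 and 10.09 in KO and 10.15 and 10.14 in wildtype (10 of 10 measured). Of the 10, 0 were called, against 0.00444% of all probe sets. On average 8 of these markers were lower in KO and 2 were higher, with a median difference of -0.045. The largest differences were those of the cannabinoid receptor gene Cnr1 at -0.13 (SE 0.080), Adarb2 at -0.125 (SE 0.13) and Lamp5 at 0.115 (SE 0.083). None of these passed the threshold. The part of interneuron content in the Htr3a level was not tested.

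Htr4, a Gs-coupled receptor of the striatum, hippocampus and gut, held the largest differences of the set, and its 2 probe sets differed in opposite directions. The first (1443365_at) measured 5.84 and 5.91 in KO, against 6.18 and 6.14 in wildtype. The mice of each genotype lay close together and the groups did not overlap. The difference was -0.285 (SE 0.073, unadjusted p of 0.013, adjusted p of 1 in limma), a ratio of 0.821. It stayed between -0.32 and -0.25 when any 1 array was left out. The second (1427654_a_at), among the dimmest of the 16, measured 4.16 and 4.56 in KO and 3.99 and 4.16 in wildtype. One KO mouse equalled one wildtype mouse, and the difference was 0.285 (SE 0.16). Without the second KO mouse it was 0.085. The name of this probe set marks probes shared by several transcripts of the gene, and which Htr4 transcripts each set reads was not looked up here. Marker genes of the striatum had mean levels of 9.82 and 9.92 in KO and 9.84 and 9.81 in wildtype, and those of the hippocampus 9.07 and 9.07 in KO and 9.11 and 9.12 in wildtype. Of 6 striatal genes measured, 3 had both KO mice above both wildtype mice and 0 had them below (13.9% and 13.2% of all probe sets). Of 8 hippocampal genes, 0 were above in this way and 1 was below.

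Htr7, the other Gs-coupled receptor, found in the thalamus, hypothalamus and hippocampus, had 1 probe set with the narrowest range of the 16 over the 4 mice. This brighter probe set (1435332_at) measured 7.42 and 7.39 in KO and 7.41 and 7.40 in wildtype. The 4 mice thus lay within 0.03 of each other, and the groups overlapped. The difference was 0 (SE 0.069), with a 95% interval of 0.882-fold to 1.13-fold. Its dim probe set (1422235_at) measured 4.54 and 4.39 in KO and 4.39 and 4.55 in wildtype, a difference of -0.0050 (SE 0.099), and spanned 0.16 over the 4 mice. Without the second KO mouse that difference was 0.07.

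Htr2c and Htr7 also stood at different places in the range of promoter composition, which the choice of the genes did not use. The 250 bases before their annotated starts are printed here to show that contrast, with each CG dinucleotide in capitals. They are taken from RefSeq (GRCm38.p6), chrX:146962263-146962512 on the plus strand for Htr2c and chr19:36057361-36057610 on the minus strand for Htr7, and are written 5' to 3' along the gene.
Htr2c: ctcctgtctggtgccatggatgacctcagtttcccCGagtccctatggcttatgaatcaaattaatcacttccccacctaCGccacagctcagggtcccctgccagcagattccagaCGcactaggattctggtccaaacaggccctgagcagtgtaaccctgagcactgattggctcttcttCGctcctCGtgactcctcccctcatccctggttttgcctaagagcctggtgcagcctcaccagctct
Htr7: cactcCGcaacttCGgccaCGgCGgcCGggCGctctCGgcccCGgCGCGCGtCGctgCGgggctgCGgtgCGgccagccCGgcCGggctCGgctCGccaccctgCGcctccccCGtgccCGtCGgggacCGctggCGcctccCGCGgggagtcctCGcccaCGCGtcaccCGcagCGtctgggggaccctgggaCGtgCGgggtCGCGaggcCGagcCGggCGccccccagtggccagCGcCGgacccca
The Htr7 stretch holds 41 CG dinucleotides at 82.0% G and C, and 1.09% of the 32851 promoters in the table have as many or more. The Htr2c stretch holds 5 at 55.6% G and C, where the median promoter holds 6. Of the 10 listed genes, 7 were in the promoter table. Htr5a had 13 CG dinucleotides, Htr1f had 7, Htr1a and Htr1b had 6 each and Htr2a had 4. The letters TATAAA, on either strand, were in 0 of these 7 stretches and in 12.4% of all promoters of this length. Htr3a, Htr4 and Htr5b were not matched.

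**Figure D2:**
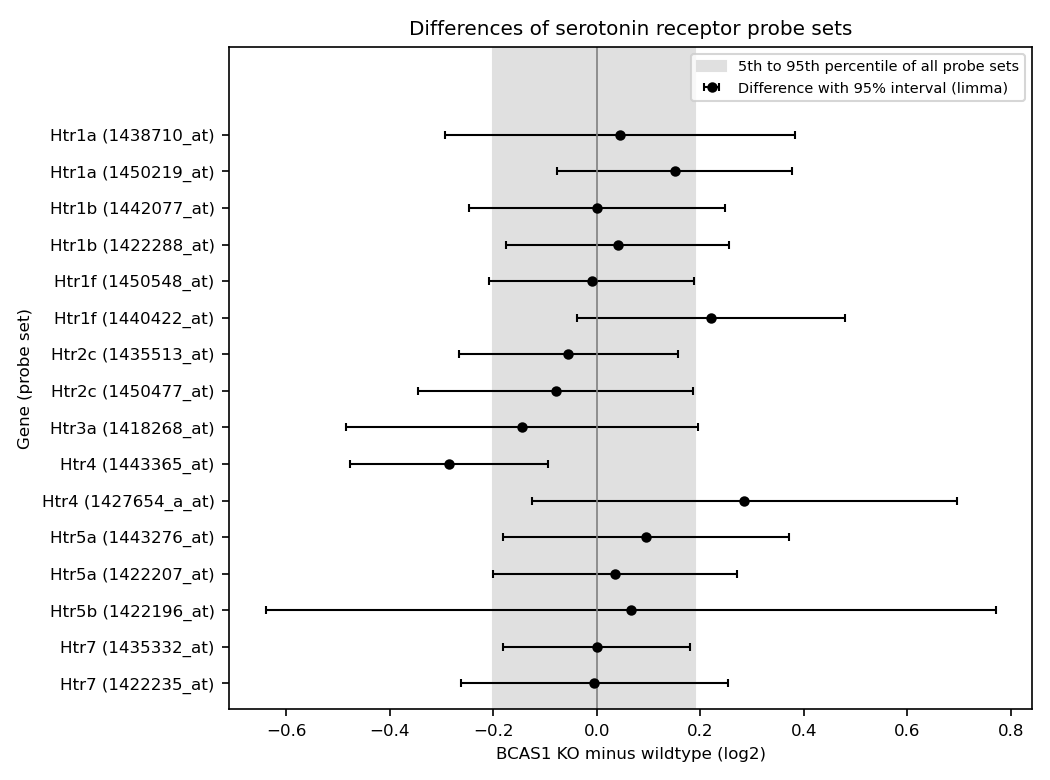
KO minus wildtype difference (log2) of each serotonin receptor probe set, with its 95% interval from limma. The grey band spans the 5th to 95th percentile of all probe sets, -0.20 to 0.19. The interval of 1 Htr4 probe set, -0.48 to -0.094, excludes 0, and that of Htr5b is the widest.

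The precision of these differences sets what can be said of the even ones. Each 95% interval is for 1 probe set and is not adjusted for the number tested. By these intervals, 15 of 16 included 0, 14 lay within 1.5-fold in both directions and 4 lay within 1.2-fold. The 4 were both Htr1b probe sets, the brighter Htr7 probe set and the Htr1f probe set at 6.09. The SEs ran from 0.069 to 0.27. Of 31 measured genes of tissues outside the brain, such as Alb and Ins2, the median level was 4.79 and the upper quartile 6.03, and 7 of the 16 receptor probe sets were at or under that upper quartile, both Htr4 probe sets among them. Only the brighter Htr1b and Htr2c sets were above the highest of the 31 genes, 8.36 for Acta1. Without detection calls, signal and background could not be separated for the others, so their intervals bound the probe signal and not the RNA. In RNA of brain tissue with mixed cells, fewer cells that carry a receptor and less of its RNA per cell cannot be told apart.

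The second mouse of each genotype read higher than the first for 8 of the 16 probe sets, where this held for 30.9% of all probe sets. These were both Htr5a and both Htr1b probe sets, the brighter Htr1a set, the dimmer Htr4 set, Htr3a and Htr5b. The reverse held for 2 of the 16 (the brighter Htr2c and Htr7 sets), against 22.9% of all probe sets. For Htr1a the step between the mice was 0.28 in KO and 0.19 in wildtype, against a genotype difference of 0.045. For Htr3a it was 0.29 in KO and 0.18 in wildtype. Genes of serotonergic raphe neurons, 6 of 8 measured, had mean levels of 5.93 and 6.10 in KO and 5.92 and 6.12 in wildtype. Of the 6, 4 read higher in the second mouse of both genotypes, while Gata3 and Lmx1b were lower in the second KO mouse (5.30 and 5.19, and 5.98 and 5.81) and higher in the second wildtype mouse (5.27 and 5.46, and 5.82 and 5.97). Slc6a4, the serotonin transporter of these neurons, read 6.15 and 6.71 in KO and 6.34 and 6.69 in wildtype. En1, a transcription factor of the same list, was dim at 3.20 and 3.26 in KO and 3.15 and 3.24 in wildtype. The part of raphe content in the receptor levels was not tested, and the labels do not say that a number marks a shared litter, dissection or day.

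**Figure D3:**
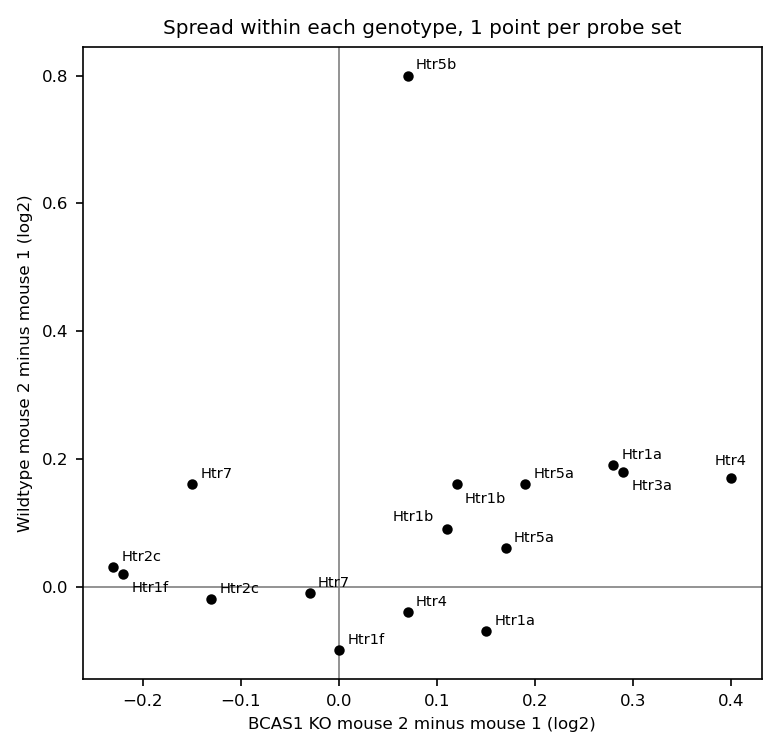
Difference between the 2 mice of each genotype (log2), BCAS1 KO on the horizontal axis and wildtype on the vertical axis, with 1 point per serotonin receptor probe set. The 8 points to the upper right of the zero lines are probe sets in which mouse 2 read above mouse 1 in both genotypes, and Htr5b lies far from the rest on the wildtype axis, at 0.80.

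The other serotonin receptors on the array were likewise not called. Htr1d, Htr2b, Htr3b and Htr6 had 6 probe sets with differences of -0.15 to 0.16, all with an adjusted p of 1 in limma. Htr6, a Gs-coupled receptor of the forebrain, measured 4.32 and 4.54 in KO and 4.27 and 4.48 in wildtype. Htr2b, the Gq-coupled receptor best known from the heart and gut, was dim at 4.55 and 4.69 in KO and 4.50 and 4.42 in wildtype, with both KO mice above both wildtype mice. The brightest Htr1d probe set, for a terminal autoreceptor like Htr1b, differed by 0.015 (SE 0.092). Htr3b, the partner subunit of Htr3a, differed by -0.105 (SE 0.15).

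Genes that make, store, take up and break down serotonin gave no calls either. Of 16 listed, 14 were measured, and 0 were called in either direction in limma (0.00444% of all probe sets were). At an unadjusted p under 0.05 there were 0 (3.42% of all probe sets). Their median difference was 0.025, with 8 positive and 6 negative. Tph2 differed by -0.015 (SE 0.12) and Slc6a4 by -0.085 (SE 0.23). The largest differences were in genes of tetrahydrobiopterin, the cofactor of Tph2, and in breakdown. Gch1, which starts the synthesis of that cofactor, measured 6.02 and 6.04 in KO and 5.67 and 5.97 in wildtype, a difference of 0.21 (SE 0.12). Spr, which completes the synthesis, differed by -0.13 (SE 0.12). Maoa, the oxidase that breaks serotonin down, measured 9.41 and 9.40 in KO and 9.26 and 9.34 in wildtype, a difference of 0.105 (SE 0.073). The KO mice were above the wildtype mice for Gch1 and Maoa, and these 3 genes had an adjusted p of 1 in limma. With 2 mice per group, 0 calls do not show that the genes were unchanged.

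Proteins that bind the receptors, or edit their RNA, gave 0 calls among 11 measured genes of 11 in limma (0.00444% of all probe sets were called). At an unadjusted p under 0.05 there were 0 (3.42% of all probe sets). The median difference was -0.020, with 4 positive and 7 negative. Ric3, a chaperone of nicotinic and serotonin-gated channels, had the largest difference of the list. It measured 6.95 and 6.64 in KO, against 7.27 and 7.03 in wildtype. Both KO mice were lower, with a spread between them nearly as wide as the difference between the group means. The difference was -0.355 (SE 0.145, 95% interval -0.73 to 0.023). Adar, an enzyme that edits adenosines in RNA including that of Htr2c, measured 10.02 and 9.95 in KO and 9.81 and 9.82 in wildtype, a difference of 0.17 (SE 0.072, adjusted p of 1 in limma). Adarb1, the other editing enzyme of Htr2c RNA, differed by -0.010 (SE 0.086). Mpdz, a scaffold protein that binds Htr2c, differed by 0.12 (SE 0.072), and S100a10, which brings Htr1b and Htr4 to the cell surface, by -0.075 (SE 0.12).

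G proteins and effectors that the receptors act on gave 0 calls as well. Of 29 listed, 27 were measured. In limma 0 were called in either direction (0.00444% of all probe sets were), and 0 had an unadjusted p under 0.05 (3.42%). The median difference was 0, and the 27 ran from -0.105 to 0.165. Gnai1, an inhibitory G protein, differed by 0.040 (SE 0.072), Gnaq by 0.040 (SE 0.075) and Gnas, the stimulatory one, by 0.030 (SE 0.071). Phosphodiesterases, which break down cyclic AMP, held both ends, with Pde4b at 0.165 (SE 0.097) and Pde4d at -0.105 (SE 0.095). Adcy5, the adenylyl cyclase of the striatum, differed by 0.10 (SE 0.072). Kcnj3, a channel opened by inhibitory receptors, had the same mean in both genotypes, 10.22, from 10.41 and 10.03 in KO and 10.23 and 10.21 in wildtype.

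**Figure D4:**
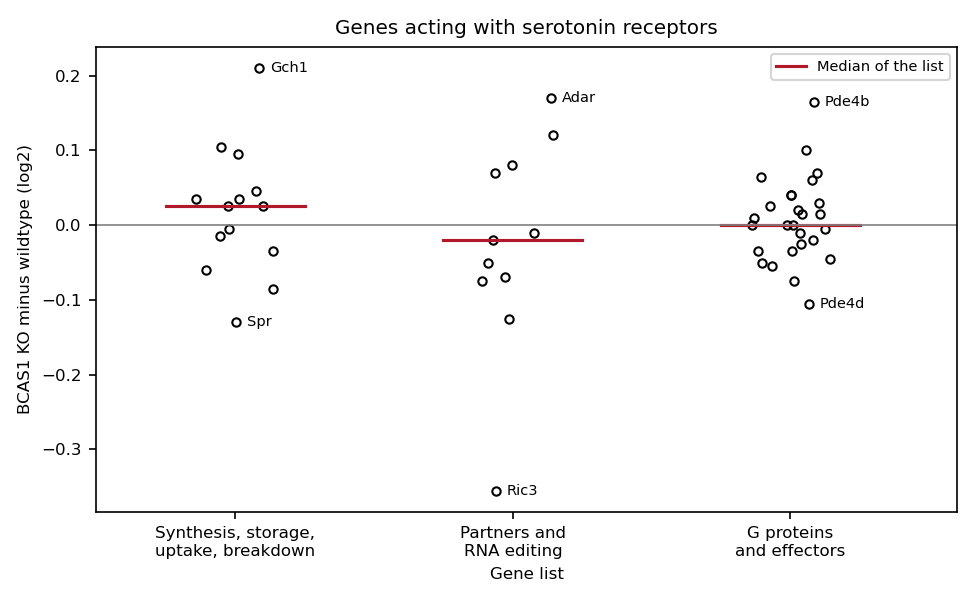
KO minus wildtype difference (log2) of each measured gene at its brightest probe set, for 3 lists of genes that act with serotonin receptors. Circles are genes and red bars are list medians, at 0.025, -0.020 and 0, and Ric3 at -0.355 lies below all the others.

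For regions in which the receptors are known, mean levels of marker genes were close between the genotypes. Neuronal genes, 8 of 8 measured, had mean levels of 12.77 and 12.79 in KO and 12.81 and 12.82 in wildtype. Of the 8, 3 had both KO mice below both wildtype mice and 0 had them above, against 13.2% and 13.9% of all probe sets. Genes of the medial habenula, a site of Htr5b, had mean levels of 6.47 and 6.49 in KO and 6.43 and 6.46 in wildtype (7 measured). Of the 7, 0 were called in limma (0.00444% of all probe sets) and 1 had an unadjusted p under 0.05 (3.42%). In that list 4 genes were positive and 3 negative. The transcription factor gene Pou4f1 measured 5.86 and 5.45 in KO and 5.05 and 5.57 in wildtype, a difference of 0.345 (SE 0.23) with overlapping groups. Tac2, a neuropeptide gene, measured 7.94 and 7.92 in KO, against 8.10 and 8.13 in wildtype, so the groups did not overlap. Its difference was -0.185 (SE 0.069, unadjusted p of 0.047, adjusted p of 1 in limma). Thalamic genes had mean levels of 9.45 and 9.50 in KO and 9.54 and 9.51 in wildtype, with the kinase gene Prkcd at -0.205 (SE 0.097). For 4 of the 7 thalamic genes both KO mice were below both wildtype mice, and for 0 they were above (13.2% and 13.9% of all probe sets). Genes of deep cortical layers, where Htr1f is found, had mean levels of 9.76 and 9.78 in KO and 9.77 and 9.77 in wildtype. Hypothalamic genes had mean levels of 8.44 and 8.64 in KO and 8.53 and 8.59 in wildtype.

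Over the 4 mice, the genes whose levels ran most like a receptor's were found by the root mean square distance between mean-centred log2 levels, among 11632 genes above the median level. With 4 points many genes can lie close to a pattern, so these neighbours are a description only. For the brighter Htr2c probe set, Mbp and Prxl2c had a distance of 0, and 133 genes lay within 0.02. For Htr7, Sparcl1 had a distance of 0 and 641 genes lay within 0.02. For Htr1a the nearest were Scgn, Star and Fndc9, at 0.0071 to 0.0087. For the Htr4 probe set that was lower in KO, the nearest were Nucb2, 3110039M20Rik and Gfm2, at 0.022 to 0.024, with 0 genes within 0.02. Nucb2 measured 7.68 and 7.72 in KO and 7.98 and 7.92 in wildtype. For Htr5b the nearest, Hoxb2, was at 0.10.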

How the data were processed

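RNA from the brains of 4 mice was read on 1-colour Affymetrix arrays, 1 per mouse. Per the submitters' processing notes, the log2 level of each probe set in the deposited table came from RMA. This method subtracts background, brings all arrays to one distribution and combines a set's probes by a robust fit. No source used here states its software or settings. The deposited log2 values have 2 decimals and no detection calls, and RMA compresses changes of dim genes. Arrays have no read depth, and their number limits the precision.

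Of 45101 rows, 64 control probe sets were left out. The platform annotation named 1 gene for 34945 probe sets and several genes for 932, and 9160 were unnamed here. Chromosomes and promoters came from RefSeq (GRCm38.p6). The KO minus wildtype contrast was fitted to all 45037 probe sets with lmFit and eBayes of limma 3.58.1 under R 4.3.3. Its tests were two-sided, with Benjamini-Hochberg adjustment and a threshold of 0.05. This left 2 residual and 2.74 prior degrees of freedom. The fit was also run on simulated data with independent noise and planted differences larger than those of the receptors. That run does not bear on differences as small as theirs. Lists were read at each gene's brightest probe set. Every receptor probe set is named, with up to 3 genes of largest difference per list, those set beside a result, and some of the 3 nearest patterns found per receptor; genes named beyond that were chosen after their values were seen. The receptors and lists were chosen with earlier results of these data known. Alternatives were median centring, a second quantile normalization, dropping dim probe sets, another variance model, the mouse number as a block, gene means and leaving out each array.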

Additional observations from a re-analysis of the deposited data

How the results depend on the processing

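Of the 16 receptor probe sets, 0 passed the adjusted threshold in limma under all settings run, and 0 pathway genes passed, also when all probe sets of a gene were averaged. Over all probe sets, 2 passed as reported, 1 with only probe sets above the median level, 10 with an intensity trend and robust variance, 0 with the mouse number as a replicate block, and 0 when any 1 array was left out. The number of receptor probe sets with non-overlapping groups was 3 as reported, 5 after repeated quantile normalization (28.6% of all probe sets), 0 of the 8 kept by the filter on dim probe sets (26.7%), and 7 to 11 when 1 array was left out, where 52.9% to 69.8% of all probe sets did not overlap. Their median difference moved between -0.025 and 0.078 when 1 array was left out. The numbers in the titles pair no mice by any label. Deviations of same-numbered mice from their group means correlated at r = 0.241 across probe sets, which are not independent, and the replicate block changed no receptor call. With all 4 arrays kept, the smallest adjusted p of a receptor probe set in limma was 0.847, with the replicate block. Under the other settings with all 4 arrays it was 0.996 or higher.

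Signs turned for 8 receptor probe sets with differences that were not called. When 1 array was left out, the brighter Htr1a set ran from -0.095 to 0.185, the dimmer Htr1b set from -0.015 to 0.095 and the Htr1f set at 6.09 from -0.060 to 0.040. The brighter Htr2c set ran from -0.12 to 0.010 and the dimmer one from -0.195 to 0.035. The dimmer Htr5a set ran from -0.050 to 0.12, Htr5b from -0.335 to 0.465 and the dimmer Htr7 set from -0.085 to 0.075. The last was at 0.0050 with arrays centred on their median. The cause was not tested. Detection of dim receptors is limited by the lack of detection calls, and 2 mice per group limit all intervals.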
